A study of Mus musculus with 2 samples.

Results

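The glucocorticoid-responsive genes, 9 genes that glucocorticoid hormones are known to act on or through, were followed in lymph node lymphocytes of mice with and without a conditional knockout of RPA1. They are 9 of the 32285 genes in the count tables: Nr3c1, Fkbp5, Tsc22d3, Ddit4, Zfp36l2, Klf9, Per1, Sgk1 and Cxcr4. The set was chosen by its known biology together with the difference between these same 2 libraries, so each WT to CKO difference of these genes is given as a description, with no test. The data were single-cell 3′ transcript counts (10x Genomics v3.1 chemistry) of lymph node immune cells from C57BL/6 mice, with 1 library from wild-type mice (WT) and 1 from RPA1 conditional knockout mice (CKO). RPA1 is the large subunit of replication protein A, the complex that binds single-stranded DNA when chromosomes are copied or repaired. The Cre driver, the deleted exons, the number, age and sex of the mice, the lymph nodes taken, any treatment and the hour of collection are not given in the sources used here. With 1 library per genotype, genotype, library, mouse and hour of collection cannot be told apart, and every interval below is a 95% interval that covers counting error only.

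Glucocorticoids cross the cell membrane and bind the glucocorticoid receptor, which waits in the cytoplasm in a complex with HSP90 and co-chaperones of the immunophilin family. The bound receptor enters the nucleus, binds palindromic glucocorticoid response elements and raises transcription of genes that include Tsc22d3, Fkbp5, Per1, Sgk1, Klf9, Ddit4 and Zfp36l2. The hormone follows a daily rhythm. In lymphocytes it is known to affect survival, cytokine output and, through Cxcr4 and Il7r, the movement of T cells between blood and tissue. Several of these genes also answer to other inputs: Ddit4 to hypoxia and the ATF4 stress response, Per1 to the circadian clock, and Cxcr4 and Il7r to FOXO factors.

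Cells were sorted in silico by raw transcript counts (unique molecular identifiers, UMIs). T cells had at least 2 UMIs of Cd3d, Cd3e and Cd3g together and none of Cd79a. They were divided into CD4 cells, CD8 cells (by Cd8b1), Foxp3+ cells and Trdc+ cells, the last with a UMI of the delta chain constant gene. B cells had at least 2 UMIs of Cd79a and none of Cd3e, and NK cells had a UMI of Ncr1, none of Cd3e and did not fall in the other gates. The WT and CKO libraries gave 7715 and 3531 T cells, of which 2803 and 1347 were CD4, 2779 and 459 CD8, 265 and 235 Foxp3+, and 232 and 624 Trdc+. The remaining 1636 WT and 866 CKO T cells fell in none of these divisions and count only in the whole T gate. There were 2750 and 7310 B cells and 69 and 210 NK cells. Median depth in the CD4 gate was 6016 UMIs per cell in WT and 5770 in CKO, against 7168 and 6438 in the CD8 gate and 4038 and 3878 in the B gate.

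The gates were checked on markers they did not use. The 4 B cell markers Ms4a1, Cd22, Pax5 and Ly6d summed to 3509 UMIs per 1000000 (CPM) in WT and 3888 in CKO B cells. In CD4 cells all 4 were found, at a sum of 7.51 and 36.1 CPM, and in T cells as a whole at 10.6 and 30.4 CPM. The trace of B cell RNA in T cells was thus higher in the CKO library, where B cells were the larger class. In NK cells the same 4 markers went the other way, at a sum of 81.1 CPM in WT and 31.1 in CKO, and the cause was not tested. The 5 T cell markers summed to 3711 and 3739 CPM in T cells and to 67.8 and 53.3 CPM in B cells. In NK cells they summed to 725 and 691 CPM. In the Trdc+ gate the gamma constant genes Tcrg-C1, Tcrg-C2 and Tcrg-C4 summed to 181 CPM in WT and 412 in CKO, while Cd4 stood at 93.8 and 45.4 CPM, so the gate holds cells of other T lineages as well and is called by its rule. The 4 myeloid markers (Lyz2, Cst3, Csf1r and S100a9) summed to 92.5 and 189 CPM in that gate, where Lyz2 stood at 1.91 and 81.1 CPM and S100a9 at 0 in both. Lyz2 went the other way in CD4 cells, at 11.8 and 1.97 CPM. The platelet markers Pf4 and Ppbp were at 0 in every gate. In CD8 cells the NK cell markers Klrb1c, Klre1, Gzma, Eomes and Prf1 summed to 136 CPM in WT and 286 in CKO. Among them Gzma stood at 29.1 and 209 CPM, while Klrb1c, Klre1, Eomes and Prf1 were each lower in CKO. The WT and CKO CD8 gates may thus hold unlike mixtures of cells, and the part of this in the CD8 ratios was not tested on its own. In B cells the plasma cell gene Jchain stood at 812 CPM in WT and 173 in CKO. The targeted gene Rpa1 stood at 46.8 and 23.7 CPM in CD4 cells and at 40.9 and 35.6 in B cells, but tags from the 3′ end need not lie in the deleted part and do not check the genotype. The libraries shared 56 cell barcodes, 45 of them among the cells kept.

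The 9 genes did not move as a block. Tsc22d3, the leucine zipper protein GILZ, was lower in CKO in all 7 gates, with CKO to WT ratios from 0.563 in Trdc+ cells and 0.563 in B cells to 0.637 in CD4 cells. Zfp36l2, an RNA-binding protein that promotes decay of AU-rich transcripts, was also lower in all 7 gates, at ratios from 0.650 to 0.789. Ddit4, an inhibitor of mTORC1, was lower in CD4, Foxp3+ and Trdc+ cells, and Cxcr4, the receptor for CXCL12, was lowest relative to WT in CD8 and CD4 cells. In the opposite direction, Fkbp5, a co-chaperone of the receptor and one of its best known target genes, was higher in CKO T cells at a ratio of 1.52 (1.37 to 1.68), just past 1.5-fold and under it in 6 of 10 alternatives. The receptor gene Nr3c1 was higher at 1.246 (1.185 to 1.309). Per1 and Klf9 were too low in every gate to be counted.

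A gene was counted when its mean over both libraries was at least 20 CPM with at least 20 UMIs, and was called past the fold at a difference of at least 1.5-fold. In the whole T gate 7 of the 9 genes passed the floor, with 3 lower in CKO past the fold (Tsc22d3, Ddit4 and Cxcr4) and 1 higher (Fkbp5). The 3 lower genes stayed past 1.5-fold in all 10 alternatives that recomputed the ratios, while Fkbp5 came down to a log2 ratio of 0.36 from 0.60 when every cell was thinned to 2000 UMIs. Trdc+ cells made up 3.01% of the T gate in WT and 17.7% in CKO, and CD8 cells 36.0% and 13.0%, so the whole T gate compares unlike mixtures. Of the 5323 genes over the floor in that gate, 0.488% were lower and 1.54% higher past the same fold. In CD4 cells 6 passed the floor and 2 were lower (Tsc22d3 and Ddit4), beside 0.839% of 5246 genes. In CD8 cells 7 passed and 4 were lower (Tsc22d3, Zfp36l2, Cxcr4 and Sgk1), beside 0.687% of 5237 genes. In B cells 5 passed and 1 was lower (Tsc22d3), beside 0.713% lower and 0.53% higher of 5471 genes. In Foxp3+ cells 6 passed and 2 were lower (Tsc22d3 and Ddit4), beside 5.9% lower and 3.86% higher of 5547 genes. In Trdc+ cells 7 passed, with 2 lower (Tsc22d3 and Ddit4) beside 2.48% and 1 higher (Fkbp5) beside 6.17% of 5474. In NK cells 7 passed and 2 were lower (Tsc22d3 and Zfp36l2), beside 10.8% lower and 7.85% higher of 5920 genes. The genes were selected on this contrast, so nothing is read from these counts against their backgrounds. The median log2 ratio of the members over the floor was -0.37 in CD4, -0.60 in CD8 and -0.45 in B cells, where all genes over the floor had medians of 0.05, 0.11 and 0.04. The same selection bears on these medians, so nothing is read from them against all genes either.

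The split of calls over all genes depended on the scaling. With ratios divided by the median ratio of their gate, the shares lower and higher became 0.639% and 1.30% in T cells and 0.953% and 0.686% in CD4 cells, where 0.915% were higher before. In CD8 cells they became 1.09% and 1.41%, where 2.23% were higher before. With ribosomal protein and mitochondrial genes left out of the totals, Trdc+ cells had 3.25% lower and 4.64% higher.

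**Figure D1:**
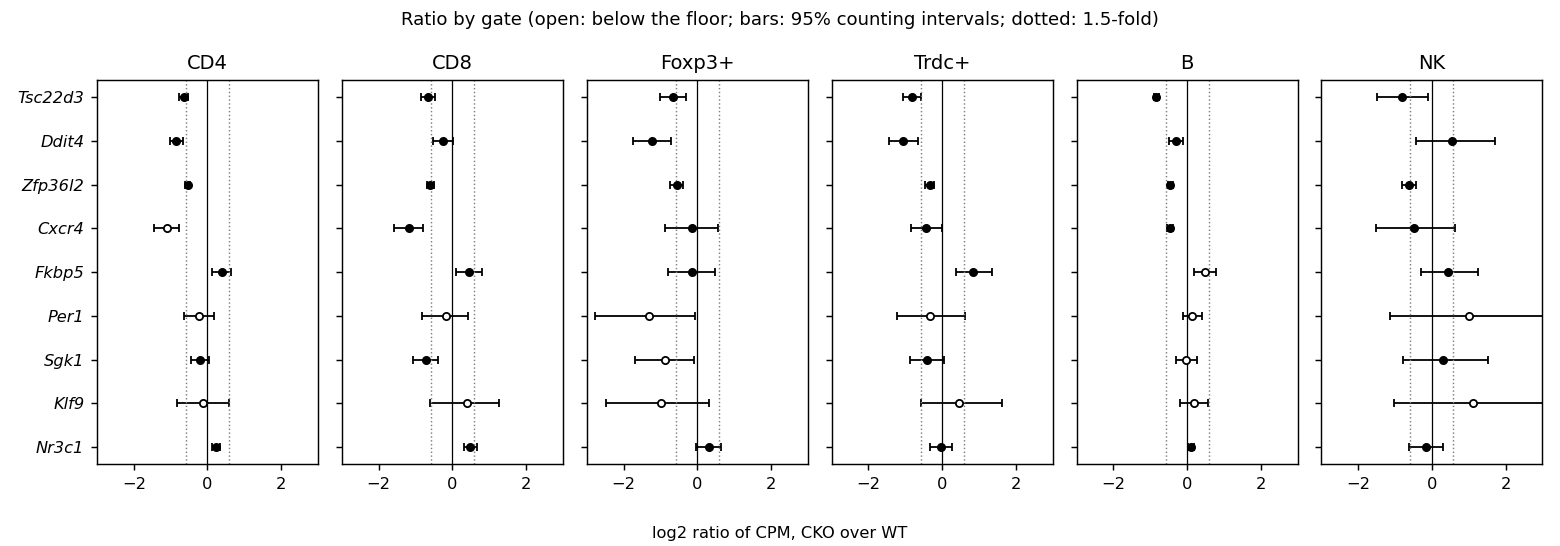
CKO to WT ratio of CPM (log2 scale) of each gene in 6 gates, with 95% counting intervals, open points for genes below the floor and dotted lines at 1.5-fold; the upper ends of the Per1 and Klf9 bars in NK cells run past the axis. Tsc22d3 and Zfp36l2 lie below 0 in every gate shown, while Fkbp5 lies above 0 in CD4, CD8, Trdc+, B and NK cells, with an interval that spans 0 in NK cells.

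Promoter windows of 4 genes are shown to set the DNA letters the receptor is known to bind beside the values, in 3 genes that were lower past the fold in CKO CD8 cells (Tsc22d3, Cxcr4, Sgk1) and in 1 that was higher in CKO T cells (Fkbp5). RefSeq windows of 300 bases ran from 250 before the transcript start to 50 after it (GRCm38.p6). They were read for 7 of the 9 genes, 15 windows in all. No window of Nr3c1 or Zfp36l2 was among them, so motifs near the starts of these genes were not examined. Each window shown is written 5′ to 3′ along the gene's strand, and capitals mark a motif match. The motifs searched on both strands were the glucocorticoid response element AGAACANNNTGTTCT, its half-site AGAACA, the FOXO site GTAAACA, the E-box CACGTG and the cyclic AMP response element TGACGTCA. The full palindrome contains both half-sites, and in the Sgk1 window a half-site overlaps the E-box, so that its letters run together.
Sgk1, chr10:21993640-21993939 (+): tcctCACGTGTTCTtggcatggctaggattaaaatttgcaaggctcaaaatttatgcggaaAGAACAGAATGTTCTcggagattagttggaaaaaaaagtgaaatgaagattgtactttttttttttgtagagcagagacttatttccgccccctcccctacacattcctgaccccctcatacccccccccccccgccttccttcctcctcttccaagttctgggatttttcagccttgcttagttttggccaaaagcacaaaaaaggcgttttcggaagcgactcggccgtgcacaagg
Tsc22d3, chrX:140600473-140600772 (-): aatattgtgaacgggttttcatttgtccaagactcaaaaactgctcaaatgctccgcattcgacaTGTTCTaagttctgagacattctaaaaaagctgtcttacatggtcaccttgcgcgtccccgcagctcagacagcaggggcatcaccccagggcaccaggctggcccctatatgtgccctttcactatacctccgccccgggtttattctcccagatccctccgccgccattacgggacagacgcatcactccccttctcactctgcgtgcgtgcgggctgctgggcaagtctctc
Cxcr4, chr1:128592250-128592549 (-): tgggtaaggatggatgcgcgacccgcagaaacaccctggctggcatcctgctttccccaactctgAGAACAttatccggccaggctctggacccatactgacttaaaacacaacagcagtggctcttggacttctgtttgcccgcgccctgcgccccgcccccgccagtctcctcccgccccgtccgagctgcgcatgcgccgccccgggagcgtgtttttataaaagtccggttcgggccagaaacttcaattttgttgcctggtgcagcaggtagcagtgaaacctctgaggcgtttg
Fkbp5, chr17:28486100-28486399 (-): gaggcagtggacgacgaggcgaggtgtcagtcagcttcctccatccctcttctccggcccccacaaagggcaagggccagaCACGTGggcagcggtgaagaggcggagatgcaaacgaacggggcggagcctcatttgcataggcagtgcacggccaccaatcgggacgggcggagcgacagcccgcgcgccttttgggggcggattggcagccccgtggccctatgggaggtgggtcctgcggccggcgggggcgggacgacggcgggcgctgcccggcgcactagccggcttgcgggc
The Sgk1 window, 1 of 6 for that gene, holds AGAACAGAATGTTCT at position -189 from the start, and only 3 of 32851 windows (0.00913%) hold the full element. The half-site lies at -185 both in the Tsc22d3 window, 1 of 3 for that gene, and in the Cxcr4 window, but it is common: 19% of all windows have one. The Fkbp5 window has an E-box at -169, as do 7.15% of windows, and the 1 Ddit4 window has no match to any of the 5 motifs. Each window shown holds a match. Among the Sgk1 windows not shown, some hold a half-site, at -195 and at -13, and the rest hold no motif. The Tsc22d3 windows not shown hold no motif. Of the 15 windows 5 hold a half-site, 1 of them also the full element, and 7 hold no motif. The Per1 and Klf9 windows hold no receptor element. A match is a description of the letters only, and a window without one says nothing about more distant elements. For genes with several windows, such as Sgk1 and Tsc22d3, the 3′ counts do not tell which start the UMIs came from.

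The receptor itself was present in every gate. Nr3c1, which encodes the glucocorticoid receptor, was at 97.8 CPM in WT CD4 cells and at 115 CPM in CKO CD4 cells (1758 and 933 UMIs), or a ratio of 1.17 (1.08 to 1.27). In CD8 cells it stood at 69.1 and 96.8 CPM, or a ratio of 1.40 (1.24 to 1.59), the highest of the 7 gates. In both cell types the CKO value lay above the WT value beyond counting error. B cells were at 121 and 131 CPM, or a ratio of 1.08 (1.02 to 1.14), which turned below 1, to a log2 ratio of -0.07 from 0.11, when only cells of 4000 to 8000 UMIs were used. Foxp3+ cells (82.5 and 102 CPM), Trdc+ cells (88.7 and 86.6) and NK cells (134 and 119.6) had intervals of the ratio that include 1. No gate passed the 1.5-fold line in either direction. Among WT cells the order ran from NK and B cells, whose intervals overlap, to CD4, Trdc+, Foxp3+ and CD8 cells, where each neighbour overlaps the next. B cells were clear of CD4 cells, but the wide NK interval (100.6 to 175.7 CPM) overlaps those of CD4 and Trdc+ cells.

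Fkbp5 (GRCm38 chr17:28399094-28517527, minus strand) encodes FKBP51, an immunophilin that lowers the receptor's affinity for hormone and is itself induced by it. Its level was 17.6 CPM in WT and 23.0 in CKO CD4 cells, or a ratio of 1.30 (1.08 to 1.57). CD8 cells had 18.8 and 25.6 CPM, or a ratio of 1.37 (1.06 to 1.74), and Trdc+ cells 26.8 and 48.2 CPM, or a ratio of 1.80 (1.29 to 2.57). The CKO value was thus the higher one in all 3 gates, but the CD8 direction turned, to a log2 ratio of -0.28 from 0.45, when every cell was thinned to 2000 UMIs. Among the divisions of the T gate, Trdc+ cells alone passed 1.5-fold. In them the NK cell markers summed to 159 CPM in WT and 611 in CKO, and Lyz2 stood at 1.91 and 81.1 CPM. Without the Trdc+ cells that had a UMI of an NK or B cell marker the log2 ratio was 0.90, against 0.85 with them, and the part of the Lyz2 signal was not tested. The B cell values of 9.12 and 12.7 CPM were below the floor, at a ratio of 1.39 (1.13 to 1.72). In Foxp3+ cells the values were 27.7 and 24.8 CPM, and in NK cells 48.1 and 65.2, with intervals of the ratio across 1 in both. The Foxp3+ log2 ratio of -0.15 depended on the setting, at -1.97 without cells with a UMI of an interferon-stimulated gene (Isg15, Ifit3 or Rsad2) and -1.32 with every cell counted equally. The WT order ran from NK through Foxp3+, Trdc+, CD8 and CD4 cells, each overlapping the next, to B cells, which were lower than CD4 cells beyond counting error.

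**Figure D2:**
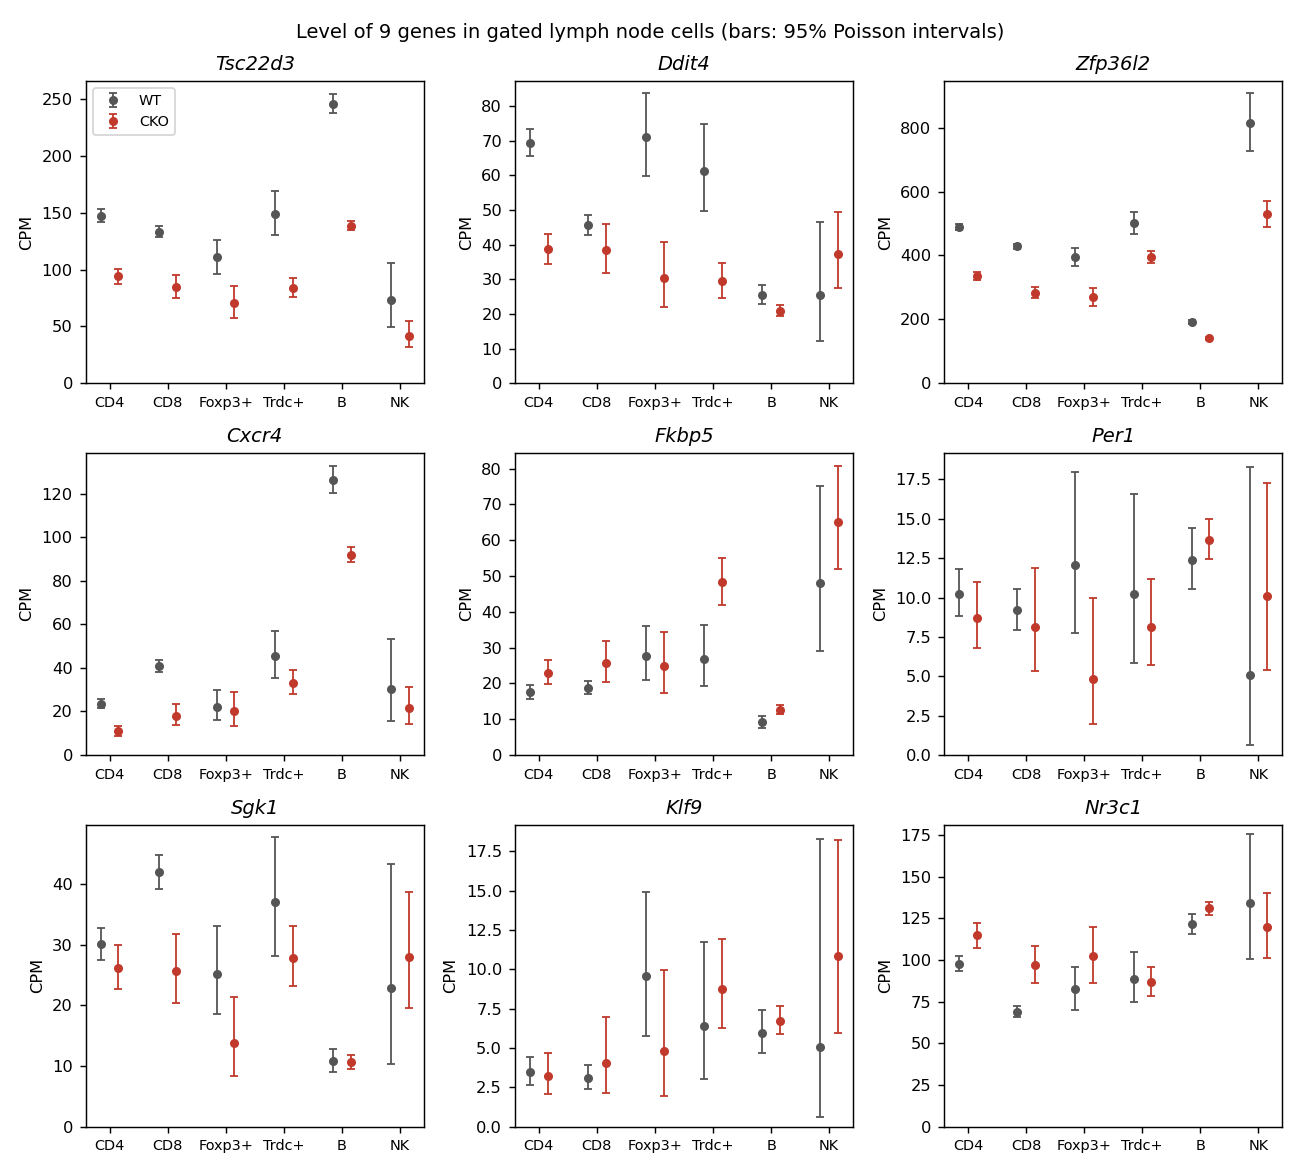
Level of each gene in each gate (CPM, linear axis with its own range for each gene) for the WT and CKO libraries, with 95% Poisson intervals. The WT point lies above the CKO point for Tsc22d3 in every gate, and below it for Fkbp5 in CD4, CD8, Trdc+, B and NK cells.

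Tsc22d3 (chrX:140539528-140600659, minus strand, GRCm38, as are the coordinates below) encodes GILZ, a glucocorticoid-induced protein that restrains NF-kappa B and AP-1. B cells had the highest level, with 3181 WT UMIs making 246 CPM and 4530 CKO UMIs making 138 CPM, or a ratio of 0.563 (0.537 to 0.589). For CD4 cells the 2650 WT UMIs made 147 CPM and the 764 CKO UMIs 93.9 CPM, or a ratio of 0.637 (0.587 to 0.690). Both cell types had WT values well clear of the CKO values. CD8 cells stood at 133 and 84.7 CPM, or a ratio of 0.635 (0.559 to 0.720). Foxp3+ cells stood at 111 and 70.4 CPM (ratio 0.636, interval 0.498 to 0.808) and Trdc+ cells at 149 and 83.7 CPM (ratio 0.563, interval 0.477 to 0.666). The small NK gate, with 29 and 54 UMIs, gave 73.5 and 41.9 CPM (ratio 0.571, interval 0.357 to 0.930). B cells were first and NK cells last in the order of levels in both libraries. In WT the Trdc+ and CD4 cells came second with overlapping intervals, then CD8 cells, and then Foxp3+ cells, whose interval overlaps that of NK cells. The 1.5-fold line was no longer passed when cells were thinned to 2000 UMIs, at a log2 ratio of -0.56 in CD4 and -0.56 in CD8 cells, against -0.65 and -0.65 before. It was also missed in Foxp3+ cells without a UMI of Isg15, Ifit3 or Rsad2, at -0.52, and in NK cells of 4000 to 8000 UMIs, at -0.35.

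The share of cells with a Tsc22d3 UMI was lower in CKO too. With every cell thinned to 2000 UMIs, Tsc22d3 was found in 37.8% (35.9 to 39.6) of WT and 23.0% (21.99 to 23.95) of CKO B cells. In CD4 cells it was found in 25.2% (23.6 to 26.9) and 17.9% (15.9 to 20.1), and in CD8 cells in 23.7% (22.1 to 25.3) and 16.2% (12.9 to 19.9). Without thinning the shares were 57.2% and 39.2% in B cells, and 53.2% and 36.5% in CD4 cells. None of the gates is known to lack these genes, so no share from a negative cell type stands beside them.

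Tsc22d3 was compared in narrower sets of cells. Among B cells with both Ighd and Fcer2a, 2225 in WT and 5744 in CKO, the ratio was 0.545 (0.518 to 0.573). Among the 45 and 118 B cells with neither, it was 1.09 (0.774 to 1.53), so the lower CKO level was not seen there. In CD4 cells without a UMI of the interferon-stimulated genes Isg15, Ifit3 and Rsad2 the ratio was 0.700 (0.620 to 0.789), and with one 0.604 (0.540 to 0.675), which overlap. CD8 cells had the lower ratio in the other set, at 0.473 (0.361 to 0.609) without and 0.714 (0.615 to 0.826) with such a UMI, and these intervals do not overlap. Cells with such a UMI were 1370 of 2803 WT and 790 of 1347 CKO CD4 cells. The part of interferon-stimulated genes in the Tsc22d3 difference was not tested.

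Depth was followed in bins of UMIs per cell. In B cells of 2000 to under 4000, 4000 to under 6000 and 6000 to under 10000 UMIs the Tsc22d3 ratio was 0.474, 0.554 and 0.655. The same bins gave 0.689, 0.697 and 0.559 in CD4 cells and 0.278, 0.548 and 0.659 in CD8 cells. Every bin lay below 1. The B and CD8 ratios came nearer to 1 with depth while the CD4 ratio did not, and the lowest CD8 bin rests on 34 CKO cells. Zfp36l2 in CD4 cells was nearly level, at 0.667, 0.684 and 0.658.

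**Figure D3:**
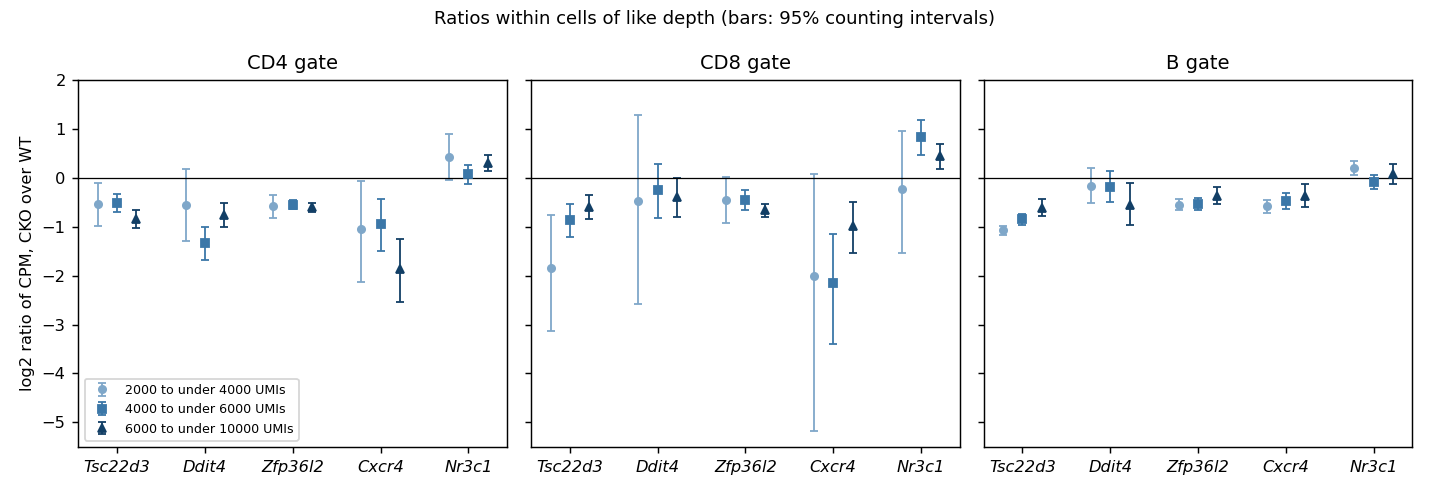
CKO to WT ratio of CPM (log2 scale) of 5 genes in bins of UMIs per cell, with 95% counting intervals. In CD4, CD8 and B cells the Tsc22d3 ratio lies below 0 on this axis in each bin, with linear ratios from 0.278 to 0.697.

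Ddit4, also called REDD1 (chr10:59949669-59951834, minus strand), is induced by glucocorticoids, hypoxia and ATF4 and switches off mTORC1. WT CD4 cells had 69.4 CPM from 1247 UMIs, while CKO CD4 cells had 38.6 CPM from 314 UMIs, or a ratio of 0.556 (0.490 to 0.630). Foxp3+ cells had 70.9 and 30.4 CPM, or a ratio of 0.428 (0.298 to 0.605), and Trdc+ cells 61.2 and 29.4 CPM, or a ratio of 0.480 (0.366 to 0.630). In these 3 gates the WT value was the higher by more than 1.5-fold. CD8 cells started lower, at 45.6 CPM in WT and 38.4 in CKO, and the interval of the ratio, 0.842 (0.693 to 1.02), includes 1. B cells were at 25.5 and 20.9 CPM, or a ratio of 0.818 (0.716 to 0.935). NK cells had 10 and 48 UMIs, at 25.3 and 37.3 CPM, and a ratio of 1.47 (0.735 to 3.26). In WT the Foxp3+, CD4 and Trdc+ cells were highest, each overlapping the next, with CD8 cells below them and B and NK cells, which overlap, at the bottom. The wide NK interval (12.2 to 46.6 CPM) also overlaps that of CD8 cells. CD4 and CD8 cells were thus apart in WT and overlapped in CKO, at 69.4 and 45.6 CPM in WT and 38.6 and 38.4 CPM in CKO.

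Thinned to 2000 UMIs, Ddit4 was found in 13.0% (11.8 to 14.3) of WT and 6.64% (5.36 to 8.10) of CKO CD4 cells. In CD8 cells the shares were 8.97% (7.93 to 10.1) and 7.66% (5.39 to 10.5), and in B cells 4.38% (3.64 to 5.22) and 3.73% (3.30 to 4.19). The shares follow the levels, with a clear difference in CD4 cells. The intervals of Tsc22d3 detection overlapped between cells with and without a Ddit4 UMI. In WT CD4 cells Tsc22d3 was seen in 26.4% (21.98 to 31.3) of the 363 cells with a Ddit4 UMI and in 25.04% (23.3 to 26.8) of the 2428 without. In CKO CD4 cells the shares were 16.9% (9.75 to 26.3) of 89 and 17.97% (15.9 to 20.2) of 1252.

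**Figure D4:**
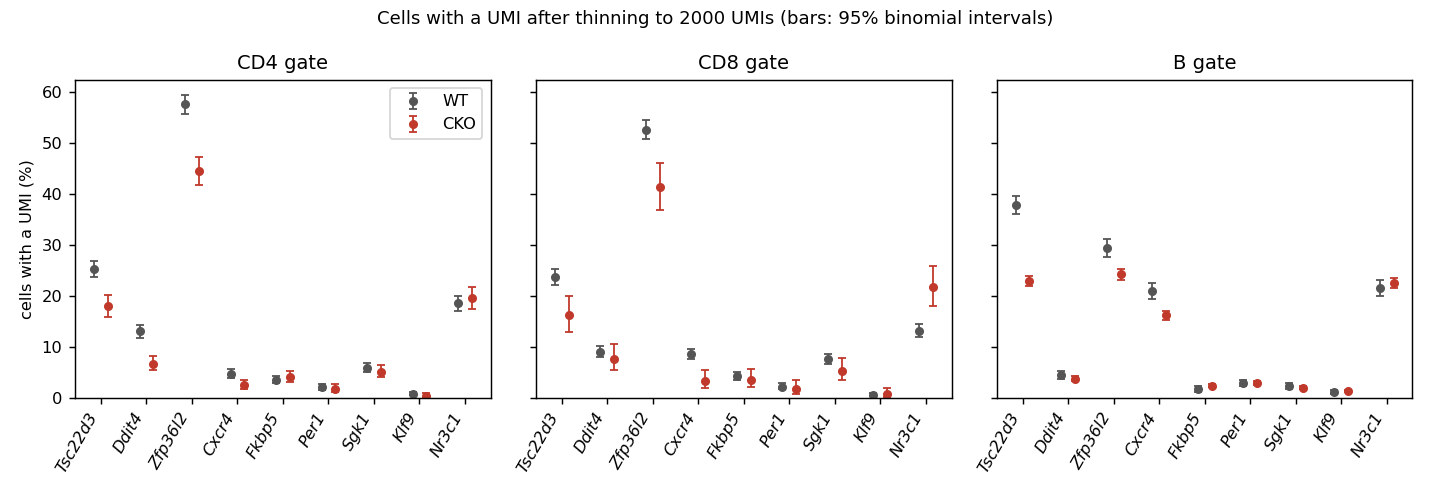
Share of cells with at least 1 UMI of each gene (percent) after thinning every cell to 2000 UMIs, in WT and CKO, with 95% exact binomial intervals. Tsc22d3 in B cells is at 37.8% in WT and 23.0% in CKO, and Ddit4 in CD4 cells at 13.0% and 6.64%.

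Zfp36l2 is a zinc finger protein of the tristetraprolin family that shortens the life of AU-rich messages (chr17:84183931-84187947, minus strand). CD4 cells had 489 CPM in WT and 336 in CKO, or a ratio of 0.688 (0.659 to 0.719). CD8 cells had 428 and 283 CPM, or a ratio of 0.662 (0.617 to 0.709), and NK cells 813 and 529 CPM, or a ratio of 0.650 (0.569 to 0.745). These last 2 gates were just past 1.5-fold, which CD8 cells missed in 4 and NK cells in 5 of 10 alternatives, and CD4 cells were just short of it. Foxp3+ cells (395 and 269 CPM, ratio 0.681, interval 0.602 to 0.770) and B cells (192 and 140.2 CPM, ratio 0.732, interval 0.697 to 0.769) were lower by less than 1.5-fold. Trdc+ cells showed the smallest difference, at 500.1 and 395 CPM and a ratio of 0.789 (0.725 to 0.859). Both libraries had the same order at its ends, with NK cells highest and B cells lowest. Between them in WT, Trdc+ and CD4 cells overlapped, as did CD8 and Foxp3+ cells below them. The share of thinned CD4 cells with a Zfp36l2 UMI was 57.6% (55.7 to 59.4) in WT and 44.4% (41.8 to 47.2) in CKO.

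Cxcr4 (chr1:128588199-128592293, minus strand) is the chemokine receptor that draws lymphocytes to CXCL12 in bone marrow and lymphoid tissue. B cells had the highest level, at 126 CPM in WT and 92.0 in CKO, or a ratio of 0.728 (0.686 to 0.774). WT CD8 cells had 40.8 CPM from 866 UMIs and CKO CD8 cells 18.1 CPM from 58 UMIs, or a ratio of 0.444 (0.334 to 0.580). CD4 cells had 23.6 and 10.9 CPM, or a ratio of 0.464 (0.365 to 0.584), but their mean was under the floor. The difference was therefore wider in CD4 and CD8 cells than in B cells, whose interval does not overlap theirs. In thinned cells the share with a UMI was 8.50% (7.49 to 9.60) and 3.28% (1.85 to 5.36) in CD8 cells and 20.9% (19.4 to 22.4) and 16.1% (15.3 to 17.0) in B cells. Trdc+ cells had 45.3 and 33.3 CPM, or a ratio of 0.735 (0.551 to 0.989). Foxp3+ cells (44 and 29 UMIs) and NK cells (12 and 28 UMIs) had ratios of 0.905 (0.546 to 1.48) and 0.715 (0.352 to 1.54), which the few UMIs leave wide. In NK cells without a UMI of Trac, Trbc2 or Lat and with few of Jchain, the Cxcr4 log2 ratio turned from -0.48 to 1.32. That value rests on at most the 12 WT and 28 CKO UMIs of the whole NK gate. Below B cells, each WT gate overlapped the next, from Trdc+ through CD8, NK and CD4 to Foxp3+ cells.

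Sgk1, a kinase that regulates ion transport and FOXO factors (chr10:21882184-21999903, plus strand), was lower past the fold in CD8 cells. These CD8 cells had 42.0 CPM in WT and 25.6 in CKO, or a ratio of 0.610 (0.481 to 0.766). Without cells with a UMI of Isg15, Ifit3 or Rsad2 the log2 ratio went from -0.71 to -0.57, just short of the fold. In CD4 cells the values were 30.1 and 26.2 CPM, and the interval of the ratio, 0.871 (0.740 to 1.02), includes 1. Trdc+ cells had 37.0 and 27.8 CPM, NK cells 22.8 and 28.0, and both ratios had intervals across 1. The Trdc+ log2 ratio went from -0.41 to -1.03 without cells that had a UMI of an NK or B cell marker. Foxp3+ cells (25.1 and 13.8 CPM) and B cells (10.8 and 10.7 CPM) were below the floor.

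Per1, a repressor of the circadian clock, and Klf9, a zinc finger transcription factor, did not reach the floor in any gate. Per1 lay at 10.2 and 8.73 CPM in CD4 cells, 9.19 and 8.12 in CD8 cells and 12.4 and 13.7 in B cells, with a ratio of 1.10 (0.919 to 1.33) in the last. Only Foxp3+ cells, with 24 and 7 UMIs, had an interval short of 1 (ratio 0.400, interval 0.146 to 0.957). Klf9 lay at 3.45 and 3.20 CPM in CD4, 3.11 and 4.06 in CD8 and 5.95 and 6.75 in B cells. The interval of the Klf9 ratio includes 1 in each of the 7 gates, and with 66 and 13 UMIs in CD8 cells it reached from 0.661 to 2.39.

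Of a list of 26 other glucocorticoid-induced genes, 14 passed the floor in CD4 cells, with 2 lower past the fold beside 0.839% of all genes, 1 higher beside 0.915%, and a median log2 ratio of -0.07. In CD8 cells 14 passed and 1 was lower beside 0.687%, and in B cells 13 passed, none was past the fold and the median was 0.10. The lower ones were Il7r, the interleukin-7 receptor alpha chain, and Rgs2, a regulator of G protein signalling. Il7r stood at 409.7 CPM in WT and 153 in CKO CD4 cells (ratio 0.374, interval 0.352 to 0.397) and at 351 and 167 in CD8 cells (ratio 0.477, interval 0.436 to 0.521). Rgs2 stood at 53.6 and 31.6 CPM in CD4 cells (ratio 0.589, interval 0.512 to 0.677). The higher one was Socs1, an inhibitor of cytokine signalling, at 43.9 and 70.3 CPM in CD4 cells (ratio 1.60, interval 1.44 to 1.79). In Foxp3+ cells 14 passed, with 4 lower beside 5.9% of all genes and 1 higher (Socs1) beside 3.86%, at a median log2 ratio of -0.19. Besides Il7r and Rgs2 the lower ones were Dusp1, a phosphatase of MAP kinases, at 137 and 82.1 CPM, and Cebpb, a transcription factor, at 34.7 and 13.8 CPM. In NK cells 3 of 14 were lower (Dusp1, Il7r and Rgs2) beside 10.8%, at a median of -0.30. In Trdc+ cells 2 of 14 were lower (Il7r and the interleukin-6 receptor gene Il6ra) beside 2.48% and 1 higher (Socs1) beside 6.17%. Dusp1 is also on the list of tissue handling genes below, and Dusp1, Cebpb and Il6ra are named after their values were seen.

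Genes that make the receptor work were not lower past the fold in CD4, CD8 or B cells. Of 19 chaperones, co-chaperones, coactivators and hormone enzymes, 17 passed the floor in CD4 and in CD8 cells and 16 in B cells, and none was past the fold in either direction. Their median log2 ratios were 0.21, 0.22 and 0.11. In CD4 cells Stip1, which links HSP70 to HSP90, stood at 56.6 and 84.3 CPM (ratio 1.49, interval 1.35 to 1.64), and Fkbp4, the immunophilin that competes with Fkbp5, at 70.0 and 97.4 CPM (ratio 1.39, interval 1.27 to 1.52). Both were higher past the fold in Trdc+ cells, at 1.74 (1.38 to 2.21) and 1.55 (1.26 to 1.93), beside 6.17% of all genes. In Foxp3+ cells Stip1 at 1.82 (1.44 to 2.30) and the HSP90 gene Hsp90aa1 at 1.51 (1.38 to 1.65) were higher past the fold, beside 3.86%. In NK cells 4 were higher beside 7.85%, namely Stip1 at 1.87 (1.23 to 2.96), the co-chaperone Ptges3 at 1.72 (1.24 to 2.44), the HSP70 family gene Hspa8 at 1.65 (1.47 to 1.85) and Fkbp4 at 1.61 (1.03 to 2.64). The coactivator Ncoa1 was the 1 lower there, at 0.582 (0.330 to 1.06), beside 10.8%.

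Cytokine genes that glucocorticoids repress were too low to read in most gates. None of 10 passed the floor in CD4, CD8 or B cells. In Trdc+ cells 2 did and both were higher in CKO, beside 6.17% of all genes, Ifng at 8.93 and 36.6 CPM (ratio 4.10, interval 2.37 to 7.66) and Ccl4 at 19.1 and 45.4 CPM (ratio 2.37, interval 1.61 to 3.60). In NK cells 4 passed the floor, and Ifng, at 185 and 190.3 CPM (ratio 1.03, interval 0.789 to 1.36), Ccl4 (ratio 0.869, interval 0.752 to 1.01) and Ccl3 (ratio 0.968, interval 0.772 to 1.22) were within the fold. Csf2 was higher there, from 4 WT and 45 CKO UMIs (ratio 3.45, interval 1.26 to 13.2), beside 7.85%. These genes are named after their values were seen. The NK cell markers in the Trdc+ gate (Klrb1c, Klre1, Gzma, Eomes and Prf1) summed to 159 CPM in WT and 611 in CKO, and their part in the Ifng and Ccl4 values was not tested.

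Lists for the other inputs to these genes were compared as well. Of 17 FOXO target genes, 13 passed the floor in CD4 and CD8 cells and only Il7r, which is also in the induced list, was past the fold. Of all genes 0.839% and 0.687% were lower past the fold there. The medians were 0.0032 and 0.015 on the log2 scale. Of 14 clock genes 1 passed in CD4 cells, of 16 mTORC1 regulators 4, and of 14 ATF4 and hypoxia genes 4, with none past the fold in CD4, CD8 or B cells. Counts past the fold in the other gates are of genes over the floor. In Foxp3+ cells 1 of 14 FOXO targets, 1 of 5 mTORC1 regulators and 1 of 4 ATF4 and hypoxia genes were lower, beside 5.9%. In Trdc+ cells 2 of 13 FOXO targets were lower beside 2.48% of all genes, at a median log2 ratio of -0.28. In NK cells 1 of 11 FOXO targets and 1 of 2 clock genes were lower, beside 10.8%. So were 1 of 6 mTORC1 regulators and 1 of 3 ATF4 and hypoxia genes. No gene of those lists was higher past the fold in any gate. Among 20 family relatives of the 9 genes 11 passed in each of the CD4, CD8 and B gates and none was past the fold. In Trdc+ cells 1 of 11 was lower and 1 higher, beside 2.48% and 6.17% of all genes. In NK cells 1 of 11 was lower and 1 higher, beside 10.8% and 7.85%.

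Genes that respond to tissue handling were read beside these results. Of 15 dissociation and immediate early genes, 10 passed the floor in CD4 cells. There 1 was lower and 1 higher, beside 0.839% and 0.915% of all genes. In CD8 cells 9 passed and 1 was lower, beside 0.687%. Fos, a subunit of AP-1, stood at 90.3 and 53.8 CPM in CD4 cells (ratio 0.596, interval 0.535 to 0.663) and at 61.8 and 33.7 in CD8 cells (ratio 0.546, interval 0.444 to 0.665). Nr4a1, a nuclear factor induced by the antigen receptor, stood at 30.1 and 50.6 CPM in CD4 cells (ratio 1.69, interval 1.48 to 1.92). In B cells 11 passed and none was past the fold, at a median log2 ratio of 0.21. In Foxp3+ cells 10 passed, with 3 lower beside 5.9% of all genes and 1 higher beside 3.86%. Trdc+ cells had 11, with none lower and 1 higher beside 6.17%. NK cells had 10, with 1 lower beside 10.8% and 2 higher beside 7.85%. The part of handling in the values of the 9 genes was not tested in any gate.

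**Figure D5:**
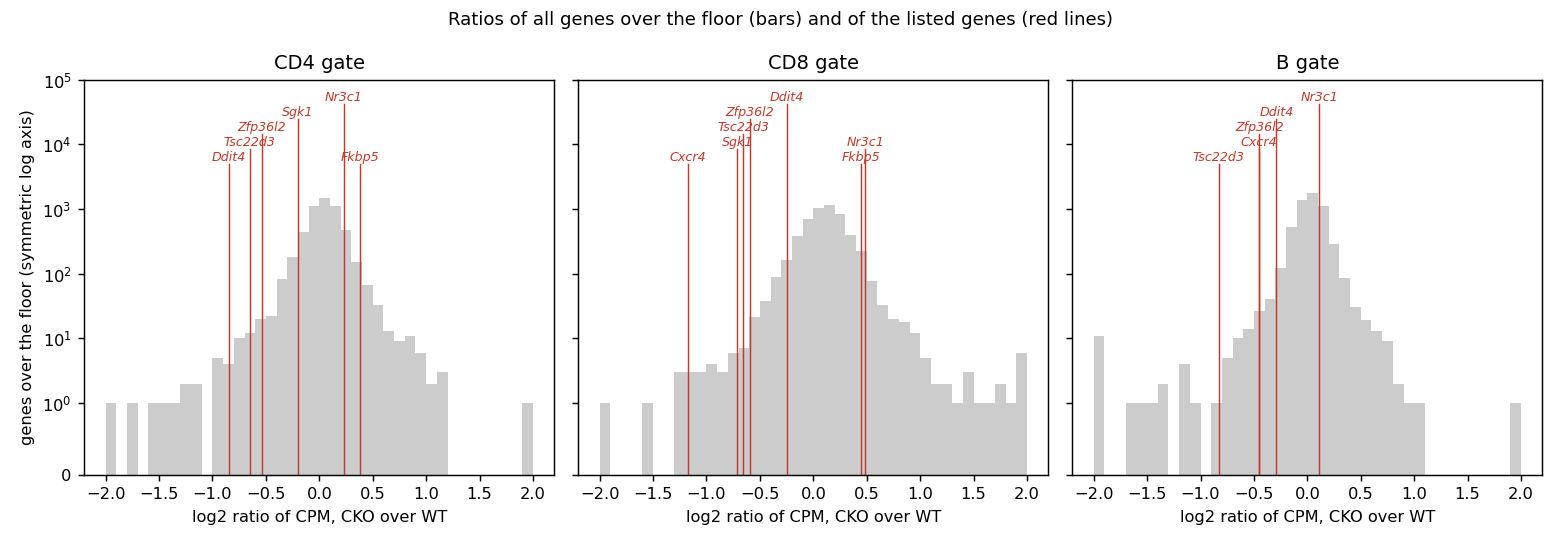
Number of genes over the floor by log2 CKO to WT ratio in CD4, CD8 and B cells, with the 9 genes marked where they passed the floor. Genes beyond 2 in either direction are gathered in the end bars, and Tsc22d3 lies in the lower tail in all 3 panels. The 9 genes were chosen on this contrast, so their places are a description only.

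The genes whose levels most resembled these were found by Pearson correlation of log2(CPM + 1) over 12 values (6 gates in 2 libraries), among 5447 genes. These values share libraries and depth, so the figures describe likeness only. Nearest to Tsc22d3 were Trmt1 (0.90), Rps27rt (0.89), Fau (0.88), Czib (0.85) and Bicra (0.85). Rps27rt is a near copy of a ribosomal protein gene, so its counts are uncertain. Nearest to Ddit4 were Naa10 (0.94), Pabpc1 (0.86), Eef2 (0.86), Sidt2 (0.84) and Eci2 (0.84). Among the 9 genes, the likeness to Tsc22d3 was 0.66 for Cxcr4, 0.55 for Per1, 0.12 for Ddit4 and -0.15 for Nr3c1. It was -0.22 for Sgk1, -0.29 for Klf9, -0.42 for Zfp36l2 and -0.86 for Fkbp5, so Fkbp5 ran against Tsc22d3. In both libraries Tsc22d3 was highest in B and lowest in NK cells and Fkbp5 the reverse, so cell type enters this figure. Likeness to Ddit4 ran from -0.64 for Nr3c1 to 0.69 for Sgk1.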

How the data were processed

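The deposited tables hold raw UMI counts per gene and cell for the WT and CKO libraries, written by Cell Ranger 6.0.2 per the file headers. The build mm10, Cell Ranger 5.0.0 and Seurat 4.0.3 are named in the submitters' processing notes. They held 12769 and 13754 barcodes with 84813609 and 76200586 UMIs. Cells were kept with at least 500 UMIs, 200 genes and at most 10% mitochondrial UMIs. Doublets were scored by Scrublet in Scanpy 1.11.5. At an assumed rate of 0.8% per 1000 barcodes, 1304 and 1513 cells with the top scores were removed, which kept 11169 and 11804 cells.

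UMIs were summed per gate and library and divided by the summed total (CPM), with exact Poisson intervals for levels, exact conditional binomial intervals for ratios and exact (Clopper-Pearson) binomial intervals for shares. With 1 library per genotype no test between genotypes was made. Counts of thinned cells used 2000 UMIs per cell, and shallower cells were left out (12 WT and 6 CKO CD4 cells, 33 and 123 B cells). Of 81 and 236 cells that met the NK rule, those also in the T gate (8 and 17) or B gate (4 and 9) were taken out. The interval method was checked on simulated counts that held counting error only, so the check covers no variation between cells or mice.

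The 9 genes and the pathway lists were chosen with earlier results of these data known. The genes named are the 9, list genes past the fold in CD4, CD8 or B cells (at most 3 each way), receptor machinery genes in any gate, and the 5 genes most like Tsc22d3 and Ddit4 among those with at least 20 CPM in at least 6 of 12 values. Alternatives changed totals, cell weights, cell filters, depth, gates, floor and fold. Python 3.11.15, numpy 2.4.6, scipy 1.17.1 and pandas 2.3.3 were used. Results that rest on some listed genes, among them ratios in 1 subset of T cells, are not reported here.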

Additional observations from a re-analysis of the deposited data

How the results depend on the processing

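Of the 628 values for the 9 genes recomputed under other settings, 578 stayed within the counting interval of the first value, 16 of them with a change of sign. The other 50 lay beyond it, 6 of them with a change of sign. Where that interval excluded a ratio of 1, 2 of 370 values changed sign. Fkbp5 in CD8 cells went from a log2 ratio of 0.45 to -0.28 when thinned to 2000 UMIs, and Nr3c1 in B cells from 0.11 to -0.0661 in cells of 4000 to 8000 UMIs; the cause was not tested. Ddit4 in CD4 cells, at -0.85, became -1.07 thinned and -1.03 in cells of 4000 to 8000 UMIs. Without cells that had a UMI of Isg15, Ifit3 or Rsad2, Tsc22d3 went from -0.65 to -0.51 in CD4 cells and from -0.65 to -1.08 in CD8 cells. Tsc22d3 in B cells, at -0.83, became -0.93 with every cell counted equally and -0.96 thinned. Another alternative, chosen after seeing the data, left out cells with a marker UMI of another class. It put Tsc22d3 in CD8 cells at -0.85 and Fkbp5 in T cells at 0.46 from 0.60. Klf9 in NK cells, with at most 2 WT and 14 CKO UMIs, went to -1.26 from 1.10. This alternative raised the count of genes lower past the fold in Foxp3+ and Trdc+ cells from 2 to 3. The count of genes lower past the fold in CD4 cells, 2, became 1 thinned, 1 without the interferon-stimulated cells and 0 at 2-fold. In CD8 cells the count of 4 became 2 thinned, 2 without the interferon-stimulated cells and 1 at 2-fold. In B cells the count of 1 became 0 at 2-fold and 3 at the lower fold line tried. The shares of all genes past the fold at these settings are not given here. Nothing is therefore read from the changes in these counts, those in Foxp3+ and Trdc+ cells included. Dividing by the median ratio shifted CD8 log2 ratios by -0.11. No paired analysis was possible because each genotype has 1 library, and for the same reason no replicate could be left out. Depth limits the NK and Foxp3+ gates most, where Cxcr4 rests on 12 WT UMIs in NK cells.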
